A study of Drosophila melanogaster with 9 samples.

Results

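The genes described here are the enzymes whose peak of expression is entered as the day 2 pupa in the authors' deposited tables. A gene was taken where the first table that holds it gives its function as enzyme and its first stage entry is 2d pupa or a range that includes day 2. Left out by name were 20 genes, mainly of pigment and chitin synthesis, and the GstE family. This left 43 of 904 listed genes, out of 321 listed enzymes of any stage; all 43 carry day 2 alone. The sources used here do not say how functions and stages were assigned.

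RNA was sequenced from dissected retinas and optic lobes of Drosophila melanogaster pupae aged 48 h at 25 °C after the white prepupa stage. There were 3 groups of 3 libraries: lGMR GAL4>UAS Blimp-1 (overexpression), lGMR GAL4>Blimp-1 RNAi (RNAi) and lGMR GAL4/+ (control). All animals carried the lGMR GAL4 driver, an eye driver, and the control carried no UAS insert. The labels do not say how many animals went into a library or which cells expressed GAL4, and eye and brain tissue share each library.

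Blimp-1 is a zinc finger protein that represses transcription and is induced by ecdysone, the steroid hormone that times moulting and metamorphosis in insects. Around the middle of pupal life the fly eye secretes the cuticle of its lenses and bristles and begins to build its visual pigment and screening pigments. Enzymes serve each of these steps: oxidoreductases act on hormones, retinoids and cuticle precursors, proteases process secreted proteins, lipid enzymes make cuticle waxes and membranes, and transferases add sugars and sulfate to secreted proteins.

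The values are normalized counts, taken here as the authors' read counts divided by 1 factor per library. Reads in listed genes, estimated from the steps between low values, came to about 1320000 to 1920000 in overexpression (710 genes), 955000 to 1320000 in RNAi (373 genes) and 1190000 to 2310000 in control (904 genes); the whole depth is unknown. Blimp-1 had 23252, 9467 and 18277 normalized counts in overexpression, against 874, 888 and 748 in control. It was 20.3-fold higher. It is not listed in RNAi, so the knockdown could not be checked here. Of the photoreceptor markers used, 6 of 13 were listed in overexpression (Arr1, Arr2 and trpl higher; eys, inaD and prom lower), and their summed level was 55395 to 66440 in overexpression and 11914 to 15830 in control. In RNAi only chp of these 13 was listed, at 8467 to 17427 in RNAi and 25179 to 28494 in control. Glia markers (4 of 6 listed, all higher) summed to 12172 to 15147 in overexpression and 4973 to 5378 in control, and none was listed in RNAi. Hemocyte markers (4 of 7 listed, all higher) summed to 937 to 1528 in overexpression and 224 to 317 in control, while in RNAi Ppn alone was listed, at 479 to 666 in RNAi and 1647 to 2203 in control. In overexpression the listed gene of the fat body list, Tsf1, was at 21627 to 29576, against 10820 to 11757 in control, that of the muscle list, Zasp66, at 68.9 to 143, against 3.36 to 17.3, and that of the neuron list, Rim, at 112 to 339, against 577 to 1231. No cone or pigment cell marker was listed there. In RNAi the muscle markers Zasp52 (higher) and sls (lower) summed to 682 to 941 in RNAi and 1828 to 2249 in control. The listed gene of the cone and pigment cell list, h, was at 87.4 to 155 in RNAi and 48 to 62.5 in control. How specific h is to these cells was not tested. No fat body or neuron marker was listed in RNAi. A marker that is not listed has no value here, so marker levels at 0 could not be counted. The part of these shifts in the results below was not tested. In tissue libraries such as these, fewer cells of a type and less RNA per cell cannot be told apart.

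In overexpression, 26 of the 43 enzymes were listed, 16 higher (61.5%) and 10 lower (38.5%) than in control. Of all 710 genes listed in overexpression, 72.4% were higher and 27.6% lower. In RNAi, 28 of the 43 were listed, 14 higher and 14 lower, and of all 373 genes listed in RNAi 49.3% were higher and 50.7% lower. The enzymes were thus listed in RNAi at a share of 65.1%, against 41.3% of all listed genes, and in overexpression at 60.5%, against 78.5%. The tables hold only genes that the authors had already selected, all with adjusted p-values of 0.05 or less and log2 fold changes of 1 or more in size, as deposited. A fit with limma to log2(normalized count + 1) therefore called every listed gene, 100% of the 710 and 100% of the 373, and the enzymes' calls add no independent evidence. Their limma adjusted p ran from 7.22e-06 (CG7432) to 0.00589 (CG10352) in overexpression and from 9e-08 (CG6347) to 0.00262 (CG5493) in RNAi.

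Median changes of the enzymes were set beside those of all listed genes. Among enzymes that were higher in overexpression the median log2 ratio of group means was 1.56, against 2.07 for all genes listed as higher there. Among those that were lower it was -1.78, against -1.66. In RNAi the medians were 1.40 for higher enzymes, against 1.92, and -1.60 for lower ones, against -1.74. In each of the 26 and 28 cases the 3 altered libraries did not overlap the 3 control libraries; the same held for 99.7% of all listed genes in overexpression and 100% in RNAi. The median coefficient of variation of an enzyme was 20.2% in overexpression against 15.4% in control, and 24% in RNAi against 18.4% in control.

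Listed in both comparisons were 11 of the 43 enzymes (25.6%), against 179 of all 904 listed genes (19.8%). Of these, 6 were lower in both (Cyp303a1, CG42331, rdhB, CG8170, CG8172 and CG6753), 4 were higher in both (Gld, Np, CG10352 and CG43366), and pip alone was higher in overexpression and lower in RNAi. Of the 179 genes, 61 were lower in both, 78 higher in both, 27 higher in overexpression and lower in RNAi, and 13 lower in overexpression and higher in RNAi. Another 15 were listed in overexpression alone, 11 higher and 4 lower, and 17 in RNAi alone, 10 higher and 7 lower. Both comparisons use the same 3 control libraries, so a shared direction is no separate result. An enzyme listed in 1 comparison has no value in the other altered genotype.

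**Figure D1:**
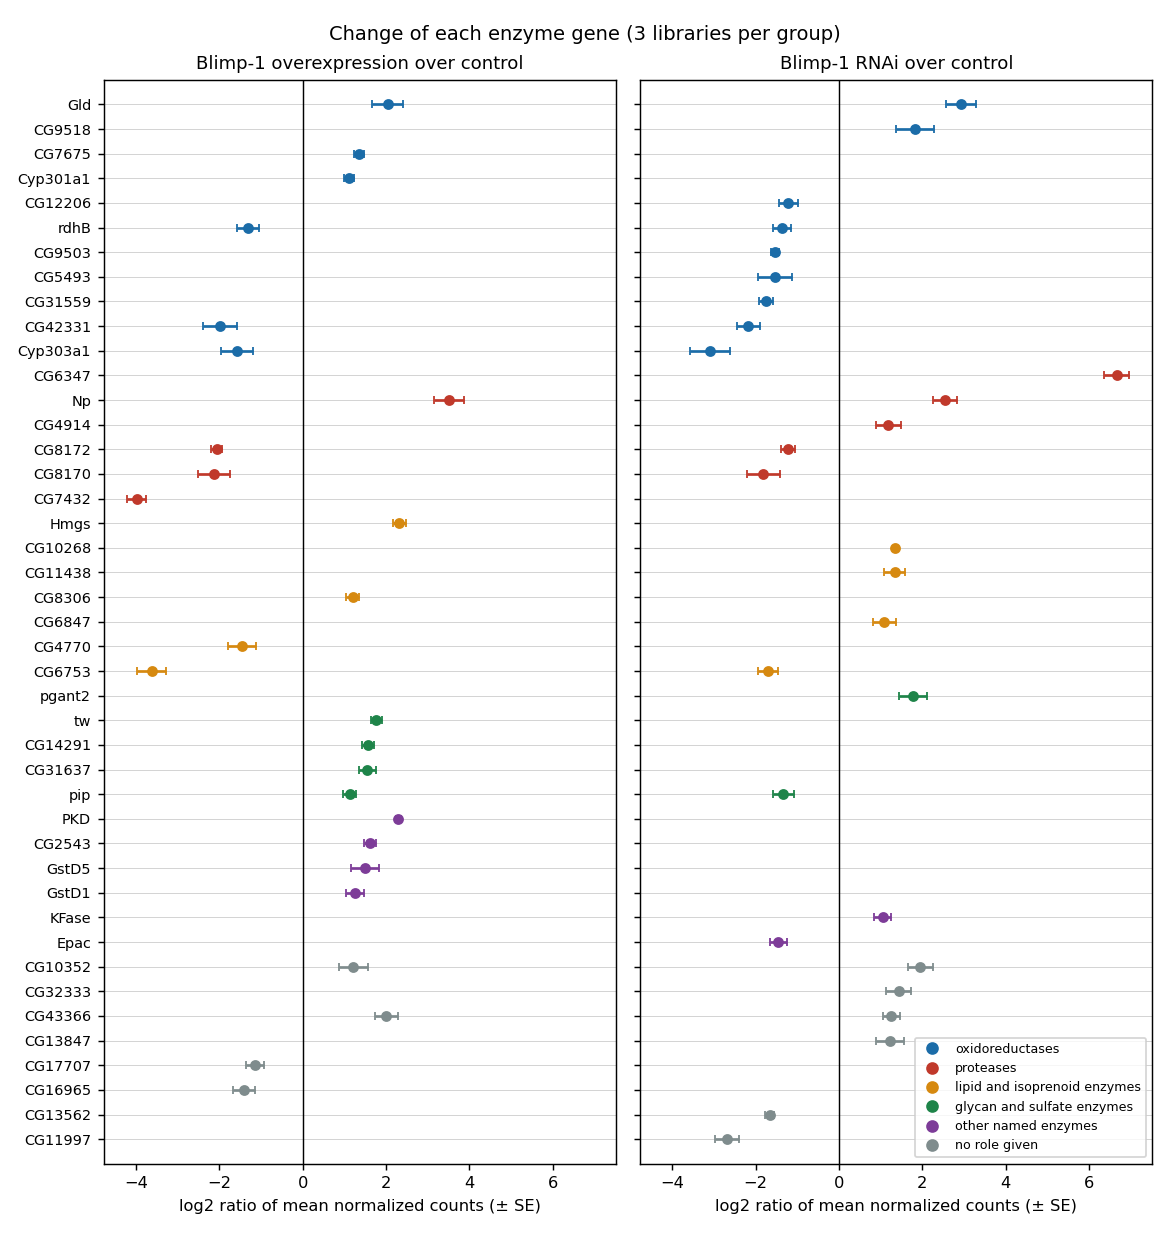
Change of each listed enzyme as the log2 ratio of group means (x axis), overexpression over control in the left panel and RNAi over control in the right, with genes grouped by role on the y axis; bars are standard errors from 3 libraries a group. Oxidoreductases lie mainly to the left of 0 in RNAi, where 7 of 9 were lower, beside 50.7% of all listed genes. All 4 listed glycan and sulfate enzymes lie to the right of 0 in overexpression, where 72.4% of all listed genes were higher.

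Oxidoreductases formed the largest role group, with 11 genes. In overexpression 6 were listed, 3 higher and 3 lower. In RNAi 9 were listed, 2 higher and 7 lower. The cytochromes P450 went down or up by gene. Cyp303a1, a P450 needed for normal sensory bristles, had 568, 991 and 636 normalized counts in overexpression, 368, 276 and 133 in RNAi and 2863, 1352 and 2335 in control. Every altered library lay below every control library, and the RNAi libraries lay lowest. It was 2.98-fold lower in overexpression (log2 ratio -1.58 ± 0.39, SE, n = 3 each) and 8.43-fold lower in RNAi (log2 ratio -3.08 ± 0.48). Cyp301a1, a P450 required for the adult cuticle, was listed in overexpression alone, with 2038, 2072 and 2039 in overexpression and 809.5, 1039 and 992 in control. Its overexpression libraries were nearly level with each other and 2.16-fold above the control mean.

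The enzymes of the glucose-methanol-choline family did not move together. Gld, glucose dehydrogenase, which acts in cuticle modification, had 524, 626 and 448 normalized counts in overexpression, 799.6, 1108 and 1023 in RNAi and 69.2, 166 and 152 in control. All altered libraries exceeded all control libraries, by 4.13-fold on average in overexpression (log2 ratio 2.04 ± 0.37) and 7.56-fold in RNAi (log2 ratio 2.92 ± 0.36). Among its relatives on the X chromosome, CG9518 rose 3.52-fold in RNAi, with 158, 110.5 and 202 in RNAi and 22.2, 61.4 and 49.9 in control. CG9503, which lies 48070 bp away with 8 genes between, fell 2.91-fold, with 623, 595 and 657 in RNAi and 1587, 1938 and 1921 in control. Neither of these 2 relatives was listed in overexpression.

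The remaining oxidoreductases of RNAi were all lower. CG42331, a heme peroxidase, had 4928, 2303 and 6359 normalized counts in overexpression, 4867, 2577 and 4413 in RNAi and 20876, 15948 and 16608 in control. It was 3.93-fold lower in overexpression and 4.51-fold lower in RNAi, and the altered genotypes overlapped each other. The retinol dehydrogenase gene rdhB, whose product helps make the chromophore of rhodopsin, showed the same picture at a higher level. It had 13252, 20632 and 11947 in overexpression, 13717, 18567 and 11865 in RNAi and 35147, 37656 and 40699.8 in control, and was 2.48-fold lower in overexpression and 2.57-fold lower in RNAi. CG31559 and CG12206 encode proteins with a glutaredoxin domain, related to a mouse protein of hair cell stereocilia. CG31559 had 229.7, 179.6 and 246 in RNAi and 827, 644 and 729.7 in control, a 3.36-fold fall, and CG12206 fell 2.31-fold, with 126, 147 and 207 in RNAi and 367, 347 and 398 in control. The groups were well apart for the first and closer for the second. CG5493, a cysteine dioxygenase, had 66.0, 102 and 108 in RNAi and 142, 292 and 367 in control and fell 2.9-fold; its control libraries were the most spread among these genes. CG7675, a short-chain dehydrogenase, was listed in overexpression alone and rose 2.54-fold, with 11866, 14278 and 11209 in overexpression and 4774, 4710.0 and 5202 in control.

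Of the 6 proteases, 4 were listed in overexpression (1 higher, 3 lower) and 5 in RNAi (3 higher, 2 lower). They held the largest change in each comparison. CG6347, now named CtsL2, a cathepsin L-like cysteine protease, had 3229, 2678 and 1921 normalized counts in RNAi and 18.1, 30.7 and 28.7 in control. Every RNAi library exceeded every control library, the means were 2609 ± 657 in RNAi and 25.8 ± 6.75 in control (SD, n = 3 each), and the rise was 101-fold. The neighbouring gene CG6357 was also listed as higher, 3.02-fold in overexpression and 2.57-fold in RNAi. CG7432, a serine protease, was the enzyme that fell farthest in overexpression, with 110.2, 106 and 99.0 in overexpression and 2169.9, 1325 and 1462 in control, a 15.7-fold fall (log2 ratio -3.98 ± 0.23). The overexpression libraries differed little among themselves and lay far below the lowest control library. CG4914, another serine protease, rose 2.27-fold in RNAi, with 125, 160.2 and 204 in RNAi and 55.8, 92.1 and 67.4 in control.

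A trio of serine protease genes lies close together on chromosome arm 2R, and all 3 were listed in both comparisons. Np, a membrane protease related to mammalian matriptase, lies at 2R 8992945 to 9006587 on dm6, CG8172 at 2R 9007234 to 9013526 and CG8170 at 2R 9019032 to 9031045, all on the minus strand. Np and CG8172 are 646 bp apart with no coding gene between. CG8172 and CG8170 are 5505 bp apart with 2 coding genes between, CG13744 and CG13747. Np had 1077, 452 and 859.8 normalized counts in overexpression, 312, 348 and 554 in RNAi and 79.9, 60.5 and 68.6 in control. Its control level per kilobase of exon was among the 3 lowest of the 43 enzymes, and it rose 11.4-fold in overexpression and 5.81-fold in RNAi. CG8172 moved the other way, with 1539, 1300.0 and 1225 in overexpression, 2885, 2288 and 2115 in RNAi and 6283, 5349 and 5285 in control. It fell 4.16-fold in overexpression and 2.32-fold in RNAi, and no library of any group overlapped another group's. CG8170 also fell in both, with 1698, 834 and 1178 in overexpression, 2188, 1169 and 1239.7 in RNAi and 7186, 4471 and 4423 in control. It was 4.33-fold lower in overexpression and 3.5-fold lower in RNAi, and the altered genotypes overlapped. CG13744, an enzyme with no stage entry, rose 3.56-fold in overexpression, with 242, 214 and 208 in overexpression and 49.7, 75.8 and 61.1 in control. Adjacent genes in this stretch thus differed in direction.

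Of the 7 lipid and isoprenoid enzymes, 4 were listed in overexpression (2 higher, 2 lower) and 4 in RNAi (3 higher, 1 lower). The 2 enzymes of the mevalonate pathway, which makes the precursors of isoprenoids, were each higher in the comparison that listed them. Hmgs, HMG-CoA synthase, had 6285, 7107 and 5169.9 normalized counts in overexpression and 1141, 1337 and 1241 in control, a 4.99-fold rise (log2 ratio 2.32 ± 0.15). CG10268, now named Pmvk, phosphomevalonate kinase, had 937, 962 and 1005 in RNAi and 379.6, 385 and 374 in control, a 2.55-fold rise (log2 ratio 1.35 ± 0.03). Its libraries varied least of all 43 enzymes in control.

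CG6753, a lipase gene, was lower in both genotypes. It had 123, 205 and 107 normalized counts in overexpression, 660.1, 516 and 468 in RNAi and 2236, 1541 and 1592 in control. It fell 12.3-fold in overexpression and 3.27-fold in RNAi, and the groups did not overlap. CG6847, another lipase gene, rose 2.13-fold in RNAi, with 2532, 1872 and 2048 in RNAi and 1339.6, 749 and 943 in control. CG11438, a lipid phosphate phosphatase, rose 2.54-fold in RNAi, with 909, 719.8 and 507 in RNAi and 314, 260.1 and 268 in control. Its neighbour laza, a lipid phosphate phosphatase of photoreceptors, was listed in overexpression instead and rose 4.6-fold there, with 1241, 909.6 and 1145 in overexpression and 307, 172 and 237 in control. The 2 fatty acyl-CoA reductases, which make fatty alcohols for waxes, differed in direction in overexpression. CG8306 rose 2.29-fold, with 5273, 5474 and 5630.4 in overexpression and 1907, 2784 and 2449.9 in control. CG4770 fell 2.73-fold, with 93.8, 144 and 161 in overexpression and 234, 426 and 430.4 in control. Next to CG8306 lies a further reductase gene, CG8303, which rose 5.33-fold in overexpression.

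Of the 5 glycan and sulfate enzymes, 4 were listed in overexpression, all higher, and 2 in RNAi, 1 higher and 1 lower. The share that was higher in overexpression among all listed genes was already 72.4%, and 4 genes are few. pip encodes a sulfotransferase known for setting the dorsoventral axis of the fly embryo. It had 6225, 6203 and 6756 normalized counts in overexpression, 894, 1117 and 1465 in RNAi and 2318, 3306 and 3116 in control. The overexpression libraries were highest, the RNAi libraries lowest, and no group overlapped another. It was 2.19-fold higher in overexpression (log2 ratio 1.13 ± 0.16) and 2.51-fold lower in RNAi (log2 ratio -1.33 ± 0.26). tw, a protein O-mannosyltransferase, rose 3.41-fold in overexpression, with 4434, 3554 and 3607 in overexpression and 1000.3, 1235 and 1165 in control. CG14291, now named Sgsh, encodes a heparan N-sulfatase of the lysosome and rose 2.96-fold, with 8999, 9826 and 8192 in overexpression and 2581, 3504 and 3044 in control. CG31637, annotated as a sulfotransferase gene, rose 2.92-fold, with 12051, 7461 and 9717 in overexpression and 3638, 3044 and 3329 in control. In each of these genes all overexpression libraries exceeded all control libraries. The enzyme that starts mucin-type O-glycosylation, pgant2, was listed in RNAi alone, with 9447, 5512 and 7692 in RNAi and 3020.4, 1716 and 1914 in control, a 3.41-fold rise.

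Among 6 other enzymes with a known role, the 4 listed in overexpression were all higher, and the 2 listed in RNAi went opposite ways. Of all 710 genes listed in overexpression 72.4% were higher, and 4 genes are few. PKD, protein kinase D, had 3519, 3141 and 3219 normalized counts in overexpression and 689, 687 and 649 in control, a 4.88-fold rise with little spread in either group (log2 ratio 2.29 ± 0.06). CG2543, now named Fpgs1, adds glutamates to folate and rose 3.07-fold, with 269, 313 and 284 in overexpression and 77.3, 99.8 and 105 in control. The glutathione transferases GstD1 and GstD5 lie 6464 bp apart in the GstD cluster with 3 genes between. GstD1 rose 2.37-fold, with 22296, 27357 and 16405 in overexpression and 9441, 8548 and 9876 in control. GstD5 rose 2.8-fold, with 136, 204 and 125 in overexpression and 39.6, 53.7 and 72.3 in control. The genes of this cluster resemble each other, so reads could have been split between them, and the low values of GstD5 beside the high ones of GstD1 are uncertain for that reason. KFase, kynurenine formamidase, acts in the pathway from tryptophan to the brown eye pigments. It had 2039.9, 2281 and 1703 in RNAi and 762, 1103 and 1038 in control, a 2.08-fold rise. Epac, an exchange factor switched on by cyclic AMP that the authors' deposited table files under enzymes, fell 2.73-fold, with 3077, 2272 and 2799 in RNAi and 8948, 6545 and 6739 in control. Its neighbour Cyp6a2, a P450, fell 7.58-fold in RNAi.

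For 8 members no role is given here. In overexpression 2 of them were higher and 2 lower, and in RNAi 4 were higher and 2 lower. CG11997 had the highest control level of all 43 enzymes, with 11711, 13727 and 10519 normalized counts in RNAi and 51163, 96499.6 and 83500.2 in control. All RNAi libraries lay far below all control libraries, a 6.43-fold fall (log2 ratio -2.68 ± 0.28). CG13562 fell 3.16-fold in RNAi, with 228, 239 and 282 in RNAi and 723, 823 and 822 in control. CG10352 had 2203, 3772 and 2115 in overexpression, 3937, 5927 and 3657 in RNAi and 848, 1350.2 and 1292 in control, and was 2.32-fold higher in overexpression and 3.87-fold higher in RNAi. CG43366 had 4043, 2367 and 4385 in overexpression, 1576, 2402 and 2426 in RNAi and 832, 1009 and 836 in control, and was 4.03-fold higher in overexpression and 2.39-fold higher in RNAi. For both genes the altered genotypes lay above control and overlapped each other. The other 4 were listed once each. CG32333 rose 2.72-fold and CG13847 rose 2.35-fold in RNAi, while CG16965 fell 2.67-fold and CG17707 fell 2.22-fold in overexpression. CG13847 adjoins pinta, a gene for a retinoid-binding protein of the eye, which fell 3.03-fold in RNAi.

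**Figure D2:**
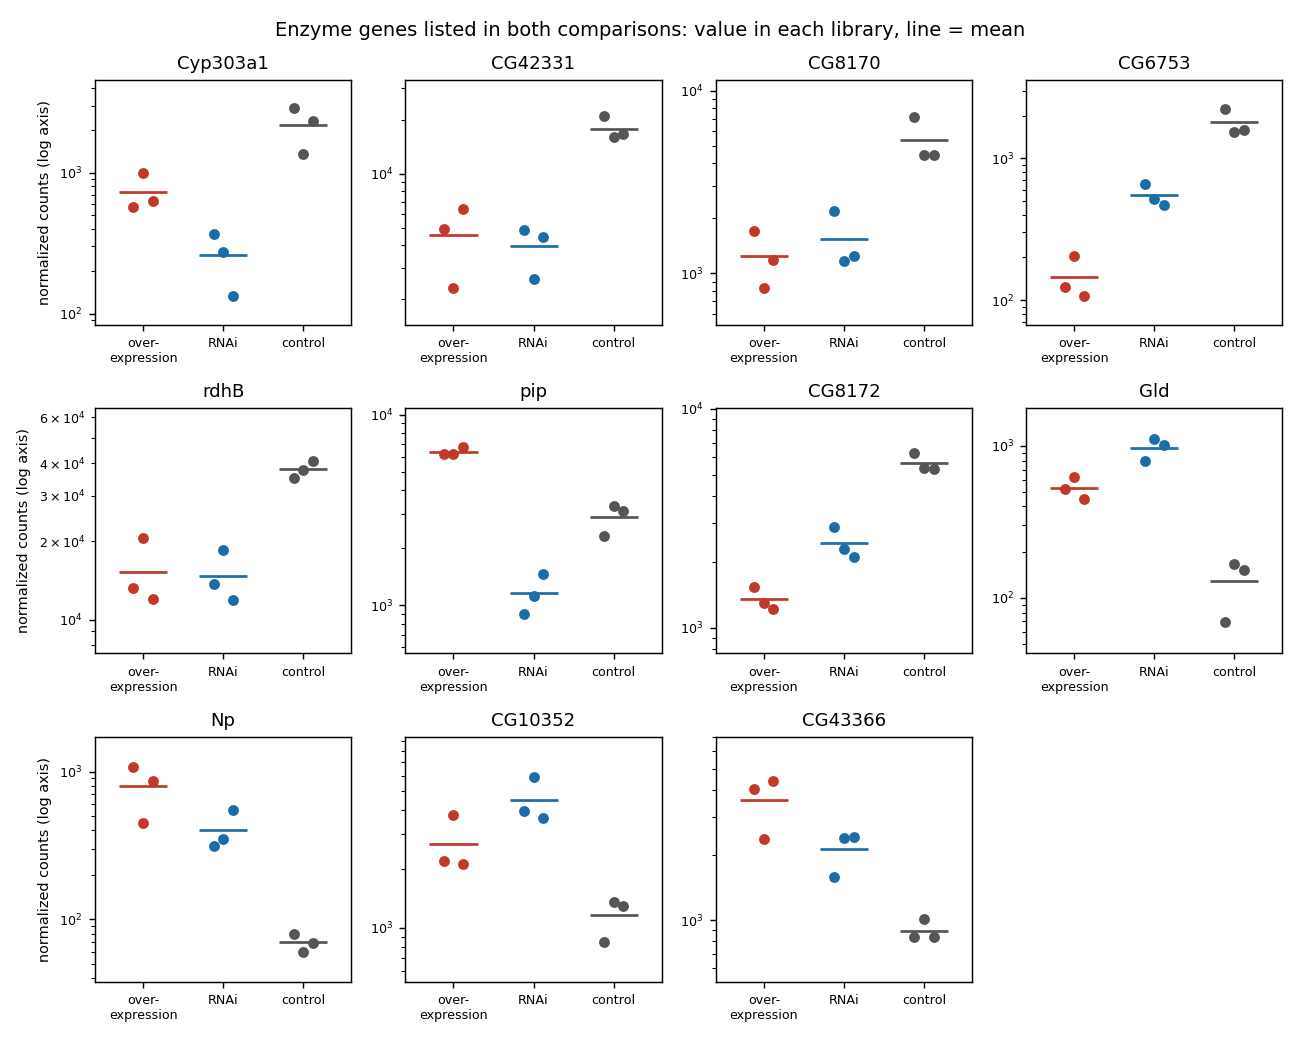
Normalized counts (log axis) of the 11 enzymes listed in both comparisons, with a point for each library of overexpression, RNAi and control and a line at each group mean. Every altered library lies outside the range of the control libraries of its gene, and pip lies above control in overexpression and below it in RNAi.

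The 11 enzymes with values in all 9 libraries allowed overexpression to be set against RNAi without the control libraries. A limma fit over the 179 genes listed in both comparisons called 5 of the 11 at an adjusted p under 0.05, 2 higher and 3 lower in overexpression. Without regard to the test, 6 were higher and 5 lower in overexpression (54.5% and 45.5%), beside 58.1% and 41.3% of the 179. The called genes made up 45.5% of the 11 enzymes and 60.9% of the 179 genes (36.3% higher and 24.6% lower). These 11 had been listed for their difference from control in the same libraries. The difference was largest for pip, which was 5.52-fold higher in overexpression than in RNAi. Its limma difference was 2.49 ± 0.23 log2 units (SE, n = 3 each, adjusted p = 6.65e-05). The authors had selected pip as higher in overexpression and lower in RNAi, at deposited log2 fold changes of 1.03 and -1.26. A large difference between the altered genotypes was thus fixed by that selection, and the limma adjusted p of pip adds no independent evidence. Cyp303a1 was 2.83-fold higher in overexpression, being lower than control in both, with a limma difference of 1.57 ± 0.41 (adjusted p = 0.0122). CG6753 was 3.77-fold lower in overexpression than in RNAi, at -1.95 ± 0.30 (limma adjusted p = 0.000855). CG8172 was 1.79-fold lower, at -0.84 ± 0.21 (limma adjusted p = 0.0108), and Gld 1.83-fold lower, at -0.87 ± 0.23 (limma adjusted p = 0.0121). The groups did not overlap for these 5 genes, and 65.9% of the 179 genes had groups that did not overlap. With genes averaging under 50 normalized counts left out of the fit, 8 of the 11 passed, 4 higher and 4 lower. Without overexpression replicate 2 the limma adjusted p of Cyp303a1 was 0.0543, and without RNAi replicate 2 that of Gld was 0.0517.

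The other 6 enzymes did not pass this test. The limma differences between overexpression and RNAi were 0.93 ± 0.38 for Np (adjusted p = 0.0709), -0.76 ± 0.31 for CG10352 (adjusted p = 0.0709) and 0.73 ± 0.31 for CG43366 (adjusted p = 0.0806). They were -0.31 ± 0.35 for CG8170 (adjusted p = 0.487), 0.13 ± 0.43 for CG42331 (adjusted p = 0.816) and 0.04 ± 0.29 for rdhB (adjusted p = 0.921) in the same limma fit. A p above the threshold with 3 libraries a group does not show that the levels were equal. Same-numbered libraries of overexpression and RNAi deviated together, and with the replicate number as a block CG10352 also passed (limma difference -0.76, adjusted p = 0.00808). Leaving out overexpression replicate 2 brought the limma adjusted p of Np to 0.0163, that of CG10352 to 0.0204 and that of CG43366 to 0.0196. Leaving out RNAi replicate 3 brought that of Np to 0.0445.

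**Figure D3:**
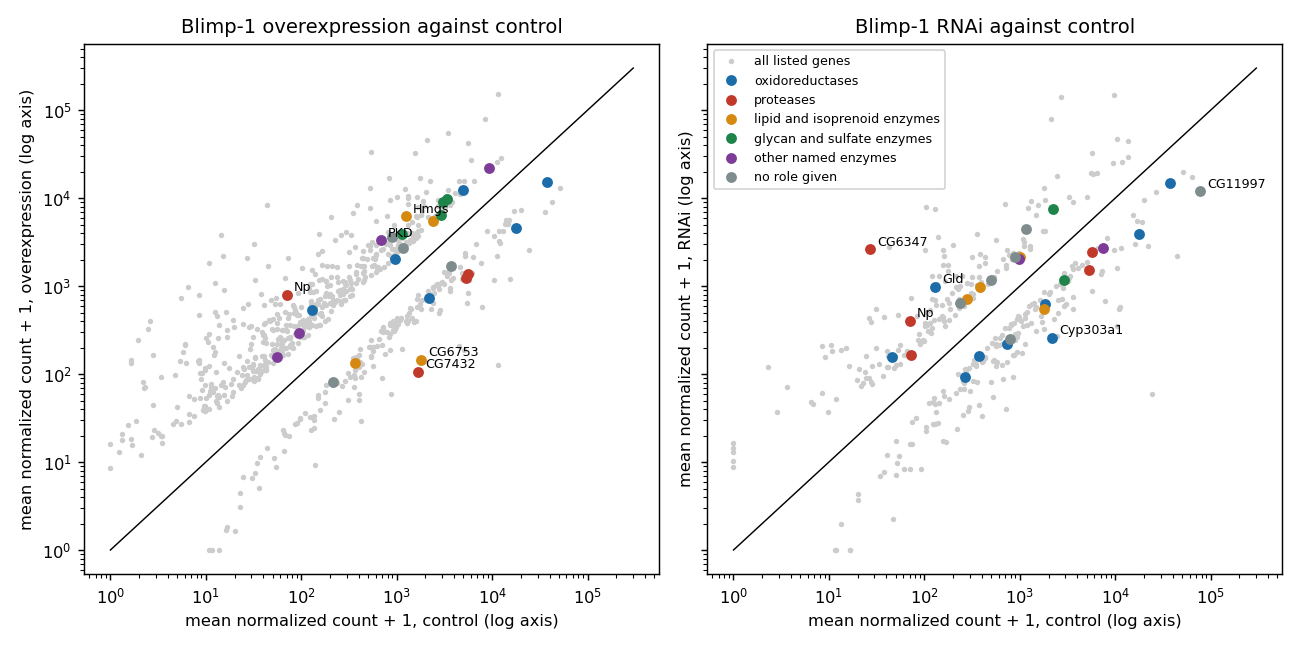
Mean normalized count + 1 over 3 libraries in the altered genotype (y axis) against control (x axis), both on log axes, overexpression in the left panel and RNAi in the right; grey dots are all listed genes, coloured points the enzymes by role, and the diagonal marks equal levels. The enzymes lie on both sides of the diagonal, and CG6347 stands apart in RNAi at 2609 ± 657 against 25.8 ± 6.75 in control.

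Levels between genes were compared in control per kilobase of exon. CG11997 stood highest at 50527 ± 15309 normalized counts per kb (SD, n = 3), followed by rdhB at 32364 ± 2379, and their libraries overlapped. GstD1 followed at 11018 ± 803 per kb, below every rdhB library and above every library of the next gene. CG7675 and CG42331 came next at 3522 ± 192 and 3359 ± 504 per kb and overlapped each other. From CG8172, at 1793 ± 178 per kb, the order ran down through CG31637 at 1249 ± 111, CG9503 at 719 ± 78.4 and Hmgs at 443 ± 35.1 to PKD at 156 ± 5.29 per kb, and most neighbours in this order overlapped. The lowest levels per kb were those of CG6347 at 19.7 ± 5.14, Np at 16.6 ± 2.33 and CG9518 at 11.3 ± 5.11. All 3 were higher in RNAi, and Np in overexpression too. A gene this low in control passes the authors' selection more readily when higher than when lower. The part of this selection in the shared direction was not tested. The control libraries of CG9518, CG5493 and Gld were the most variable, with coefficients of variation of 45.3%, 42.8% and 40.6%.

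**Figure D4:**
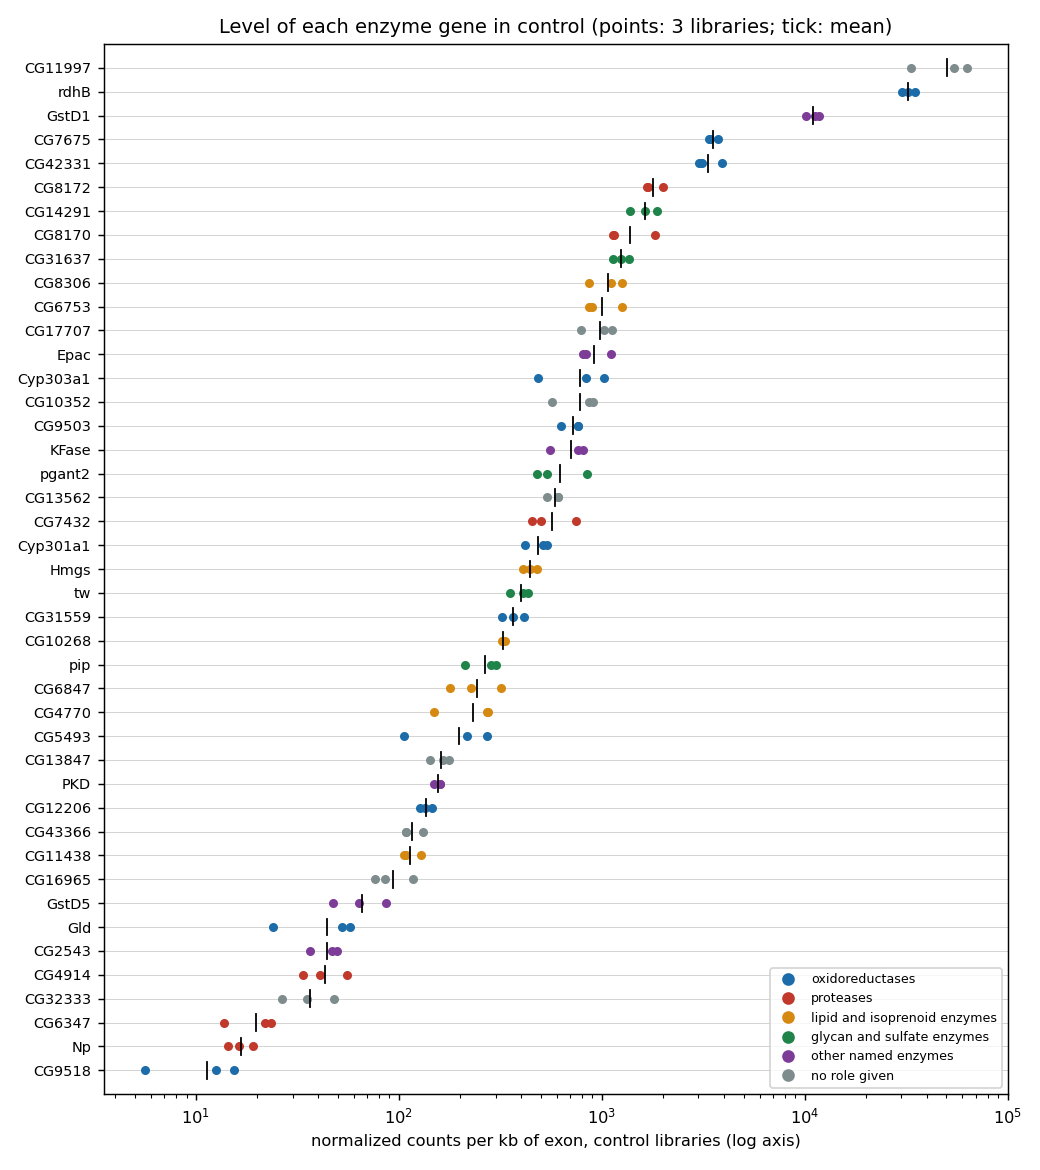
Control level of the 43 enzymes in normalized counts per kilobase of exon (log axis), ordered from high to low, with a point for each of 3 control libraries and a mark at the mean. The levels run from CG11997 at 50527 ± 15309 to CG9518 at 11.3 ± 5.11, and most genes overlap the next one in the order.

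The authors' deposited table of RNAi also marks genes with Blimp-1 sites and Slbo sites; the sources used here do not say how these were found. Blimp-1 sites were marked for 18 of the 28 enzymes listed in RNAi (64.3%), against 158 of all 373 listed genes (42.4%), in the authors' deposited table. By direction, 8 of 14 higher enzymes (57.1%) and 10 of 14 lower enzymes (71.4%) had a Blimp-1 mark, against 43.5% and 41.3% of all higher and lower genes in the authors' deposited table. Slbo sites were marked for 15 of the 28 enzymes (53.6%), against 34.3% of all 373 genes, and both marks stood beside 12 (42.9%), against 23.9%, in the authors' deposited table. In the authors' deposited table, 4 of 14 higher enzymes had both marks (28.6%, against 26.1% of all higher genes): Gld, pgant2, CG13847 and CG6847. Both marks also stood beside 8 of 14 lower enzymes (57.1%, against 21.7% of all lower genes). These were Cyp303a1, CG42331, CG8170, CG8172, CG31559, CG12206, Epac and pip. CG6347, with the largest rise in RNAi, had a Blimp-1 mark without a Slbo mark in the authors' deposited table, and CG11997 had neither. These shares are a description of genes the authors had selected, and overexpression has no such marks in its tables.

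The 43 enzymes were spread over the genome, with 14 on 3R, 11 on 2R, 8 on X, 6 on 2L and 4 on 3L. A coding gene directly beside the enzyme was itself listed for 9 of the 43 (20.9%), against 171 of 864 placed listed genes (19.8%). Beside the cases above, CG13258 next to Cyp303a1 fell 9.17-fold in RNAi, with 139, 57.0 and 77.4 normalized counts in RNAi and 979, 601 and 932 in control. CG13631 next to CG42331 fell in overexpression (log2 ratio -1.13), with 1961, 2328 and 2779 in overexpression and 4101, 5769 and 5561 in control. In both of these pairs the neighbour fell in a comparison in which the enzyme fell.

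Other genes of the same families and pathways were counted from lists that also hold some of the 43 enzymes. Beside these counts, 72.4% of all listed genes were higher in overexpression and 49.3% in RNAi. Cytochromes P450 were listed 11 times in overexpression (9 higher, 2 lower) and 7 times in RNAi (4 higher, 3 lower). Glutathione transferases were listed 8 times in overexpression, all higher, GstD1 and GstD5 among them, and once in RNAi, where GstT4 was lower. Of 45 fatty acid elongases, desaturases and acyl-CoA reductases, 6 were listed in overexpression (5 higher and CG4770 lower) and 5 in RNAi, all higher. Their summed level was 9034 to 9684 normalized counts in overexpression against 2660 to 3662 in control, and 9193 to 11603 in RNAi against 2203 to 2364 in control. Of 14 phenoloxidases, laccases and heme peroxidases, the peroxidases CG42331 and CG10211 were listed in both comparisons and were lower in each. Of a fixed list of 8 sulfotransferase and heparan sulfate enzymes, pip alone was listed in either comparison. That list does not hold CG31637 and CG14291, which were higher in overexpression. All these genes passed in limma at an adjusted p under 0.05 in the comparison that listed them. So did 100% of all listed genes, which the authors had selected, so these passes add no independent evidence.

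The share of higher genes was also counted for enzymes with another stage entered. The genes left out by name and the GstE family were left out of the day 2 enzymes alone. The other classes keep any such genes, so the sets are unlike in this. In overexpression 61.5% of the listed day 2 enzymes were higher, against 79.2% of 53 enzymes peaking in the prepupa or on day 1 and 85.7% of 63 enzymes peaking on day 3 or 4. In RNAi 50% of the day 2 enzymes were higher, against 76% of 25 and 59.1% of 22 in the same classes. Of enzymes with no stage entry, 78.5% of 107 were higher in overexpression and 40.4% of 52 in RNAi. Of the day 2 enzymes left out by name, 0 of 3 were higher in overexpression and 0 of 3 in RNAi. Genes of other functions that peak on day 2 were higher in 49.5% of 95 cases in overexpression and 31.2% of 64 cases in RNAi. The differences between these shares were not tested.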

How the data were processed

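The authors deposited 4 tables of genes higher or lower in overexpression and in RNAi. Their normalized counts are a signal: within each library of the deposited tables, all values are taken to share 1 scaling factor. This was checked on low values alone. The tables also hold the authors' log2 fold changes, deposited as control over altered genotype and turned around here, adjusted p-values deposited by the authors, and text on function, stage and sites. Per the labels' protocols, libraries were stranded, with 250 ng of total RNA as input. The submitters' processing notes name DESeq2, STAR 2.6.1d, bedtools 2.26.0, Subread 1.6.3 and Picard 2.18.20, on the build dm6, and the sources used here give no settings.

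Folds are ratios of group means, and the standard error of a log2 ratio comes from both groups' SDs. limma 3.58.1 in R 4.3.3 was fitted to log2(normalized count + 1) over all listed genes of a comparison (710 for overexpression, 373 for RNAi, 179 for overexpression against RNAi), with Benjamini-Hochberg adjustment and a threshold of 0.05. The script was tested on simulated data. The labels number no animals behind the replicates, so p-values measure the spread between these libraries. Low values were whole multiples of 1 step per library within 0.02 reads. From these steps came the reads in listed genes, about 955000 to 2310000 per library.

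Same-numbered overexpression and RNAi libraries deviated together from their group means (r = 0.33, 0.60 and 0.29 across 165 genes), so the replicate number was used as a block in an alternative fit. Alternatives changed the pseudocount to 0.5 or 5, required a mean of at least 50 normalized counts, used group medians or the authors' deposited log2 fold changes, chose members by any table, or left out each library.

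Members were placed on BDGP6.54 (the coordinates of dm6): 41 by identifier, KFase by symbol and CG2543 by an older symbol. Exon length is that of the merged exons. The enzymes, the gene and marker lists and the tests were chosen with earlier results of these data known. The rule for named genes took members listed in both comparisons, then in each comparison and direction the 6 largest changes, the 3 smallest deposited adjusted p and the highest levels, and up to 3 of each class. The other members, and neighbouring genes, were named after their values were seen.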

Additional observations from a re-analysis of the deposited data

Results flagged for a closer look

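pip, the sulfotransferase gene, differed between overexpression and RNAi by 2.49 on the log2 scale in limma (SE 0.23, adjusted p = 6.65e-05, n = 3 each). It stands here because its values moved opposite ways from control, at 6395 ± 313 normalized counts in overexpression, 1159 ± 288 in RNAi and 2913 ± 524 in control (SD). All 3 overexpression libraries exceeded, and all 3 RNAi libraries fell below, every control library. The authors had selected pip for these opposite changes in the same libraries. The difference between overexpression and RNAi was thus fixed by the selection, and its limma adjusted p adds no independent evidence. Of the 179 genes listed in both comparisons, 27 were likewise higher in overexpression and lower in RNAi, and 13 were the reverse.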

How the results depend on the processing

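The counts of called enzymes were 26 in overexpression and 28 in RNAi, that is, all that were listed. They stayed the same under both other pseudocounts, the filter on low values, the replicate block and every left-out library. The main fit called 100% of all listed genes, which were preselected, so this constancy says little. Choosing members by any table gave 28 in overexpression and 30 in RNAi, the added genes being Cad96Ca and Clic. Day 2 alone as the stage left all 43. In overexpression against RNAi, 5 enzymes became 8 where genes averaging under 50 normalized counts were left out of the fit, 6 with the replicate block, and 4 to 7 on leaving out a library. The median log2 ratio over the enzymes in overexpression, 1.20, was 1.10 from group medians, 1.07 from the authors' deposited table and 1.05 to 1.28 on leaving out a library. In RNAi it was -0.08, against -0.15 from group medians and -0.16 to -0.06 on leaving out a library. With 14 enzymes higher and 14 lower, this median falls in a gap from -1.21 to 1.05 that holds no enzyme. It thus describes no enzyme's change. The median over all 373 genes listed in RNAi, 50.7% of them lower, was -1.05. Single enzymes changed sign in overexpression against RNAi alone, and without a call: leaving out a library gave CG42331 -0.18 to 0.55 (below 0 without overexpression replicate 3 or RNAi replicate 2) and rdhB -0.20 to 0.22 (below 0 without overexpression replicate 2, RNAi replicate 1 or RNAi replicate 3). Their log2 ratios of means likewise ranged from -0.13 to 0.51 and from -0.22 to 0.26, and that of CG8170, -0.31 with all libraries, was 0.04 without RNAi replicate 1. The cause of these shifts was not tested. Same-numbered libraries of overexpression and control had r = 0.48, 0.27 and -0.07, and those of RNAi and control r = 0.35, 0.07 and 0.08. Replicate 1 of both altered genotypes thus also deviated together with control replicate 1. Replicates 2 and 3 of both altered genotypes went best with a control library of another number. The labels give no more than a number, and a shared batch was not tested. The replicate block changed the call of CG10352 and of no other enzyme. The planned edgeR and DESeq2 fits were not run, since whole multiples were seen in the 24 to 56 low values of a library, too few to check recovered reads over nearly all genes. Another scaling could not be tried on preselected genes. Total depth is unknown, so no floor for low values is given.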
